A study of Mus musculus with 2 samples.

Results

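The serpins of clades A and B were compared between control and *Drp1*LiKO primary mouse hepatocytes. Members were all genes whose name in the array design is Serpina or Serpinb followed by a number, with every probe of each gene. This gave 53 genes with 68 probes, of 37074 gene names with 56605 probes on the array. Clade A held 26 genes with 34 probes and clade B 27 genes with 34 probes. The gene names stood in the RefSeq table for all 53 genes.

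Serpins are protease inhibitors that offer an exposed loop as bait, and a protease that cuts the loop is trapped and destroyed together with the inhibitor. Clade A serpins are mostly secreted, and the liver makes the bulk of those found in plasma, among them the antitrypsins, the antichymotrypsins and carriers of thyroid and steroid hormones that no longer inhibit proteases. Clade B serpins lack a classical signal peptide and act mainly inside cells, where they protect against the cell's own proteases and against granzymes. Mice carry many more copies of both clades than humans do, in tandem arrays of close relatives.

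*Drp1* (gene name *Dnm1l*) encodes the GTPase that divides mitochondria. The control cells came from *Drp1*flox/flox mice (labeled wild type), and the *Drp1*LiKO cells from *Alb-Cre* Tg/+ *Drp1*flox/flox siblings, both with the strain background C57BL/6 in the labels. Cre was driven by the albumin promoter, which is active in hepatocytes, so other cells carried along in a culture keep *Drp1*. Hepatocytes were isolated by collagenase perfusion, plated without lipopolysaccharide and harvested 24 h after seeding. The number of mice behind these cultures is not given in the sources used here. The study's methods give an age and sex for purchased mice only, and whether these hold for the crossed mice is not stated.

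RNA of each genotype was labeled with Cy3 and read on 1 array of 60-base probes. With 1 array per genotype no test was possible, no p-value is given, and every difference is one between these 2 arrays. Values are scaled signals, that is the background-corrected intensity of a probe after both arrays were brought to the same 75th percentile, and a log2 ratio is *Drp1*LiKO minus control. A gene was read at its brightest probe and called higher or lower at a Z score of 2 or beyond among the 30275 probes that stood well above background in either culture, or a 2.46-fold higher or 2.48-fold lower signal. Each member probe was printed once. Probes printed 10 times had a median SD between spots of 0.038 (control) and 0.042 (*Drp1*LiKO) on the log2 scale, which covers the reading of an array and not the variation between cultures or mice.

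Facts of the whole arrays that touch the members were as follows. The brightest probe of *Dnm1l* read 2772 in the control and 1143 in the *Drp1*LiKO culture, a log2 ratio of -1.28. Its Z score of -1.95 was just short of the threshold, and its other, dim probe read 24.3 and 19.7 (log2 ratio -0.31). Of 18 hepatocyte markers, 18 were well above background on at least 1 array, 2 of them (*Pck1* and *G6pc*) on 1 array only, and *Cyp3a11* was the only one called, as higher. Of 18 macrophage markers, 16 were measured, all 16 lay above a log2 ratio of 0, 12 were called higher, and the summed signal went from 11916 to 28026, while *Timd4* and *Cd163* were not well above background on either array. Endothelial markers were called higher in 9 of 13 genes (summed signal 4812 and 9488) and stellate cell markers in 4 of 10 measured (23394 and 28354). Most of each control sum came from 1 gene that was not called. These were *Cd14* for macrophages (6825 and 7904), *Egfl7* for endothelium (4019 and 6516) and *Acta2* for stellate cells (22834 and 23132). The sums therefore say little about the other markers of each list. In a mixture of cell types, fewer cells of a type and less RNA per cell cannot be told apart. What these cell types contribute to any serpin signal was not tested.

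Most clade B serpins had higher signals in the *Drp1*LiKO culture. Of the 17 clade B genes measured on at least 1 array, 5 rose (*Serpinb1a*, *Serpinb2*, *Serpinb9e*, *Serpinb9f* and *Serpinb9g*), which is 29.4%, against 3.5% of the 20165 genes measured, and 1 fell (*Serpinb13*), against 2.81%. In either direction, 6.3% of the genes measured were called. All 13 clade B genes measured on both arrays had a log2 ratio above 0, with a median of 0.62. Of the 21 clade A genes measured, none rose and 1 fell (*Serpina7*). The 18 clade A genes measured on both arrays had a median of -0.19, and 12 of them lay below 0, against 9 with quantile normalization, 9 with normexp and 8 with the deposited values. Over all 17735 genes measured on both arrays the median was -0.052, and 43.6% lay above 0. Because related serpins share sequence and some share array signal, the genes of a clade are not independent of each other.

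**Figure D1:**
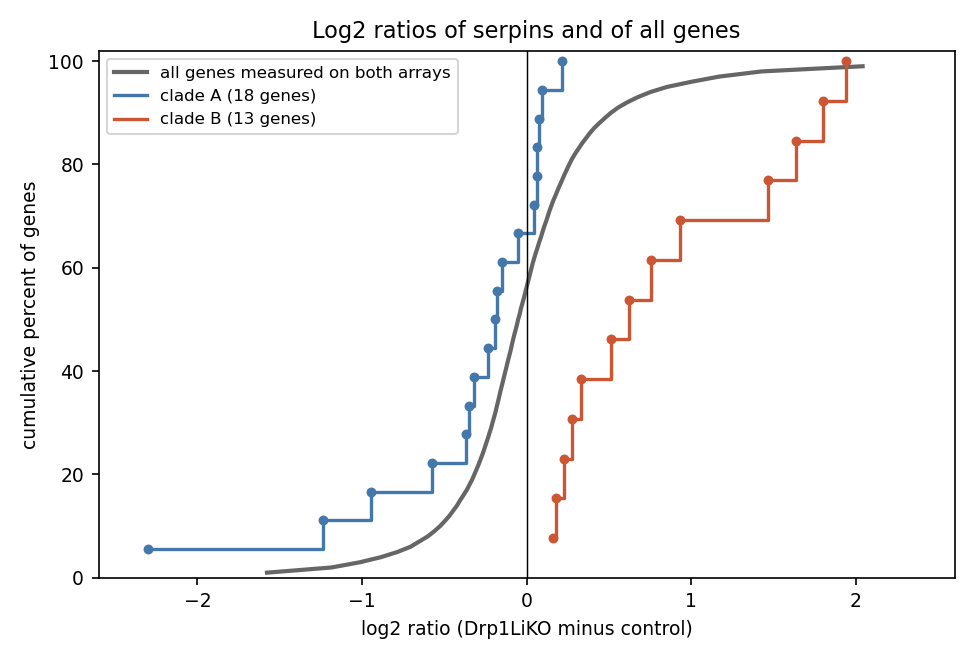
Cumulative percent of genes (vertical axis) by log2 ratio of *Drp1*LiKO over control (horizontal axis) for the 18 clade A genes, the 13 clade B genes and all genes measured on both arrays, 1 array per genotype. The clade B curve lies to the right of 0 throughout, and most of the clade A curve lies close to the curve of all genes or to its left.

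The genes that rose together most clearly were *Serpinb9e*, *Serpinb9f* and *Serpinb9g*, close mouse relatives of *Serpinb9*, the intracellular inhibitor of granzyme B. Their promoters are shown first because these copies are hard to tell apart by sequence. The 150 bases before the RefSeq start of each gene (build GRCm38.p6, plus strand) read as follows, with capitals on the longest run that *Serpinb9e*, *Serpinb9f* and *Serpinb9g* share, which has 41 bases and also stands whole in *Serpinb9d*.
Serpinb9e, chr13:33249458-33249607: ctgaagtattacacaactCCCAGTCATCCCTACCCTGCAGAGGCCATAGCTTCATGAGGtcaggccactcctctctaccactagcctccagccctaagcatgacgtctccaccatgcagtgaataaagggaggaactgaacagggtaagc
Serpinb9f, chr13:33323927-33324076: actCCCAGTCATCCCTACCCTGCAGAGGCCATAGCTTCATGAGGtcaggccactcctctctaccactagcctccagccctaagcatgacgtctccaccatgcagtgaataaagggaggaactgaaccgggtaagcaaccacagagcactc
Serpinb9g, chr13:33484640-33484789: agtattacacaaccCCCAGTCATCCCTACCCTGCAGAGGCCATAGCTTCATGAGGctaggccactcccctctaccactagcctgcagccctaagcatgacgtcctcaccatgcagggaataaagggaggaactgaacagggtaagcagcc
Serpinb9d, chr13:33192805-33192954: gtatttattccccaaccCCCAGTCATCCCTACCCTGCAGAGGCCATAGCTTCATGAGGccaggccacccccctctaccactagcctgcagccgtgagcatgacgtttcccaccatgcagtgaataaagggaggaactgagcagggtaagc

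*Serpinb9* itself has a different promoter. Its 150 bases before the start are shown with capitals on a match to GAAANNGAA, the core of the interferon-stimulated response element (ISRE), here read from the opposite strand and beginning 45 bases before the start.
Serpinb9, chr13:33004391-33004540: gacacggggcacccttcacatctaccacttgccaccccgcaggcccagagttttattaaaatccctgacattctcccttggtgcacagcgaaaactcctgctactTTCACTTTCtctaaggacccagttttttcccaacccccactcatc
Over the 300 bases from 250 before to 50 after the start, the promoters of *Serpinb9e* and *Serpinb9f* were identical at 283 of 285 aligned bases, those of *Serpinb9e* and *Serpinb9g* at 284 of 296, and those of *Serpinb9d* and *Serpinb9e* at 273 of 295. The promoters of *Serpinb9* and *Serpinb9e* were identical at 125 of 289 aligned bases.

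*Serpinb9e* read 1117 in the control and 4284 in the *Drp1*LiKO culture. It rose 3.84-fold (log2 ratio 1.94, Z score 2.99), 27.3 times the spot noise expected of its ratio. *Serpinb9f* read 1323 and 4609 and rose 3.48-fold (log2 ratio 1.80). *Serpinb9g* read 976 and 3030 and rose 3.11-fold (log2 ratio 1.63). The *Drp1*LiKO signal was the higher one for each of these genes, and their log2 ratios ranged from 1.51 to 1.98 over 9 other ways of processing. The calls of *Serpinb9f* and *Serpinb9g* were lost where no floor was set for dim signals, which widened the spread of all ratios.

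These readings are not fully separate measurements. The array design lists a *Serpinb9e* transcript for the *Serpinb9f* probe as well. The 60-base probes of *Serpinb9f* and *Serpinb9g* share a run of 41 bases, of which the first 30 are shown because cross-hybridization between copies would act through such a run.
Serpinb9f and Serpinb9g probes, first 30 of 41 shared bases: gagtcctctaacaaatggccatttctatct
How much of the signal of one copy is read by the probe of another was not tested.

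The other members of the *Serpinb9* group also had higher signals in *Drp1*LiKO cells, but none passed the threshold at its brightest probe, except that *Serpinb9d* did without a filter on dim probes. *Serpinb9* read 1617 and 2308 (log2 ratio 0.51). *Serpinb9c* read 111 and 187 (log2 ratio 0.76). *Serpinb9d* read 111 and 212 at its brightest probe (log2 ratio 0.93) and 56.9 and 126 at its other probe (log2 ratio 1.14). *Serpinb9d* thus had a promoter much like that of *Serpinb9e* and a smaller ratio. *Serpinb9b* was not well above background on either array. Over the 6 measured genes of the group the median log2 ratio was 1.28, and 6 of 6 lay above 0 under each of the 9 other ways of processing. Granzyme B (*Gzmb*), the protease that *Serpinb9* inhibits, was not well above background on either array. Neither was *Gzma*. Of 11 T and NK cell markers with a probe, 9 were not well above background, *Cd3d*, *Cd3g*, *Nkg7* and *Ncr1* among them, and none of the other markers rose.

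**Figure D2:**
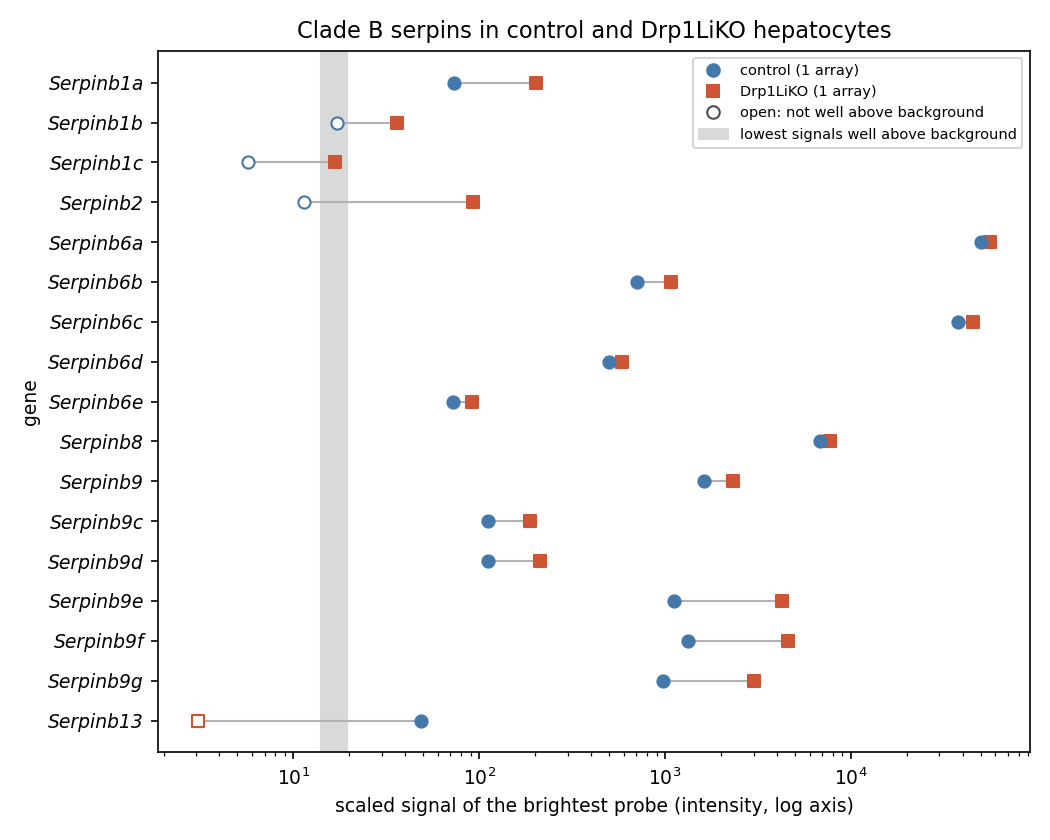
Scaled signal (log axis, intensity) of the brightest probe of the 17 measured clade B genes in control (circles) and *Drp1*LiKO cells (squares), 1 array each, with open symbols for signals not well above background and a gray band between the lowest signals that were. *Serpinb9e*, *Serpinb9f* and *Serpinb9g* moved from between 976 and 1323 to between 3030 and 4609, and the *Serpinb6* genes moved little.

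*Serpinb1a* encodes an inhibitor of neutrophil elastase, cathepsin G and proteinase 3 and is abundant in leukocytes. Its signal was 73.2 in the control and 202 in the *Drp1*LiKO culture, so that it rose 2.76-fold (log2 ratio 1.47, Z score 2.26), a call that was also lost without that floor. The paralogs *Serpinb1b* and *Serpinb1c* were not well above background in control cells. *Serpinb1b* read 36.3 in *Drp1*LiKO cells, at least 1.87-fold above the lowest signal well above background on the control array (19.4), short of the threshold, which it passed without a filter on dim probes. *Serpinb1c* read 16.6 in *Drp1*LiKO cells, too dim for a fold. Of the proteases that *Serpinb1a* inhibits, *Elane* read 677 and 585 (log2 ratio -0.21), and *Ctsg* and *Prtn3* were not well above background. Neutrophil markers gave a mixed picture, since 4 of 10 were measured, with *Ly6g* higher by at least 3.72-fold, and *S100a8*, *S100a9*, *Mpo*, *Ngp*, *Retnlg* and *Cxcr2* were not well above background.

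*Serpinb2* encodes plasminogen activator inhibitor type 2, which inhibits urokinase and is known as a product of activated macrophages. It was not well above background in control cells and read 92.8 in *Drp1*LiKO cells, at least 4.78-fold higher (log2 ratio 2.26, Z score 3.47). It passed the threshold under every other setting that gave it a Z score, but its log2 ratio was 1.02 with normexp and 3.02 without a floor. Its targets moved in opposite directions. Urokinase (*Plau*) rose from 178 to 474, 2.66-fold, and tissue-type plasminogen activator (*Plat*) fell from 796 to 215, 3.69-fold. The macrophage markers that rose beside *Serpinb2* and *Serpinb1a* included *Marco* (54.0 to 590, 10.9-fold), *Cd5l* (189 to 1565, 8.28-fold) and *Adgre1* (49.4 to 310, 6.28-fold), and their part in these signals was not tested.

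The promoter of *Serpinb2* is shown for its match to TTCNNNGAA, the core of the gamma-activated site (GAS), in capitals. The window holds the 100 bases before the second of its RefSeq starts (build GRCm38.p6, plus strand). From this second start, the match begins 77 bases upstream. From the first RefSeq start, the same match begins 10 bases downstream, and most of the window shown lies downstream of that start.
Serpinb2, chr1:107511410-107511509: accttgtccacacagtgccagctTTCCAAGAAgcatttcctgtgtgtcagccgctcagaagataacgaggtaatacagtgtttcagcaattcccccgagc

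The *Serpinb6* group, intracellular inhibitors related to human proteinase inhibitor 6, which blocks cathepsin G and trypsin-like proteases, shifted little. *Serpinb6a* read 50279 in the control and 56219 in the *Drp1*LiKO culture (log2 ratio 0.16), and its other probe gave 0.14. *Serpinb6c* read 37696 and 45619 (log2 ratio 0.28), and its other probe gave 0.21. The probes of *Serpinb6a* and *Serpinb6c* share a run of 26 bases. *Serpinb6b* had the widest ratio of the group, 705 and 1082 (log2 ratio 0.62). *Serpinb6d* (500 and 584) and *Serpinb6e* (72.4 and 90.9) gave log2 ratios of 0.22 and 0.33. None of the 5 genes passed the threshold, and the median log2 ratio was 0.28.

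The remaining clade B genes lie in the cluster of chromosome 1 (build mm9, chr1:108778585-109504924), which holds the squamous epithelial serpins. Of its 12 genes, 9 were not well above background on either array, namely *Serpinb3a*, *Serpinb3b*, *Serpinb3c*, *Serpinb3d*, *Serpinb5*, *Serpinb7*, *Serpinb10*, *Serpinb11* and *Serpinb12*. *Serpinb8*, which encodes an inhibitor of furin, read 6793 and 7681 (log2 ratio 0.18), while its other probe went the other way (184 and 150, log2 ratio -0.29). *Serpinb13*, an inhibitor of cathepsins K and L first known from squamous epithelium, read 48.8 in control cells and was not well above background in *Drp1*LiKO cells. It fell at least 3.47-fold (Z score -2.74). The call was lost with normexp background correction (log2 ratio -0.64) and with the deposited normalized values (-1.12). Without a floor the log2 ratio was -3.99.

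Position along chromosome 13 is shown because *Serpinb9e*, *Serpinb9f* and *Serpinb9g* lie side by side. Of the 15 clade B genes between 32934693 and 34078430 (build mm9), 14 were measured. *Serpinb9e*, *Serpinb9f* and *Serpinb9g* are consecutive among the measured genes of this cluster, flanked by *Serpinb9d* (log2 ratio 0.93) on one side and *Serpinb6d* (log2 ratio 0.22) on the other. *Serpinb1a* lies at the far end of the cluster. In the clade A cluster of chromosome 12, with 25 genes between 104853280 and 105651977 and 20 of them measured, no gene passed the threshold at its brightest probe.

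**Figure D3:**
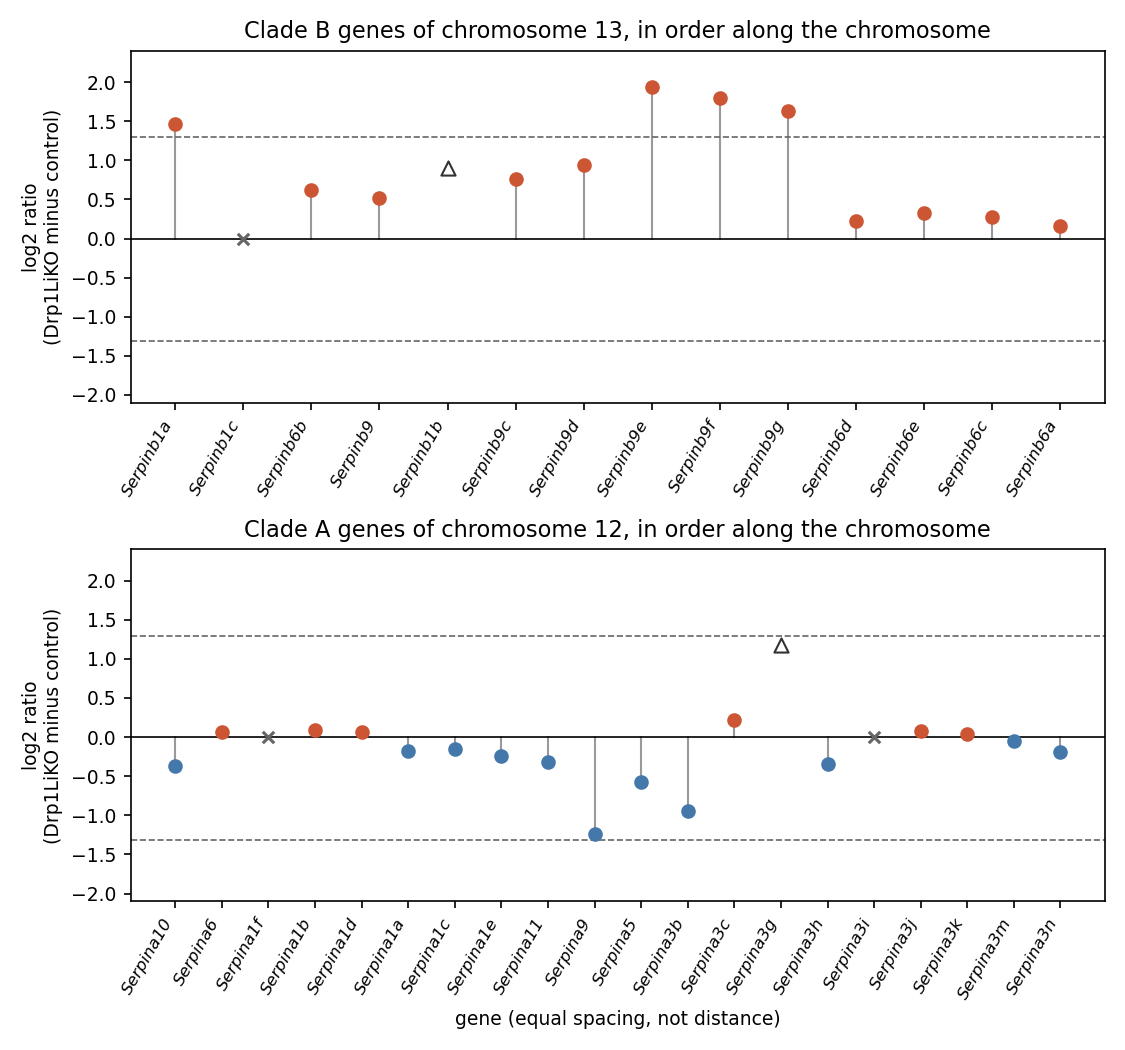
Log2 ratio (*Drp1*LiKO minus control) of the measured genes of the chromosome 13 and chromosome 12 clusters in their order along the chromosome, 1 array per genotype, with dashed lines at the Z scores of 2 and -2, triangles for lower bounds and crosses for genes too dim in control cells for a ratio. Every dot of chromosome 13 lies above 0, with *Serpinb9e*, *Serpinb9f*, *Serpinb9g* and *Serpinb1a* past the upper line.

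The antitrypsins of clade A, which inhibit neutrophil elastase in plasma, differed little between the cultures. *Serpina1a* read 360555 in the control and 318564 in the *Drp1*LiKO culture (log2 ratio -0.18), with 0.10 at its other probe. *Serpina1e* read 337539 and 286796 (log2 ratio -0.24), with -0.13 at its other probe. *Serpina1c* read 313563 and 282012 (log2 ratio -0.15). The signals of *Serpina1b* (214908 and 229075) and *Serpina1d* (116480 and 121835) gave log2 ratios of 0.092 and 0.065. None passed the threshold, and the negative signs of *Serpina1a*, *Serpina1c* and *Serpina1e* did not hold under every way of processing: *Serpina1a* reached 0.076 with normexp background correction, *Serpina1e* 0.023 with the deposited values, and *Serpina1c* 0 with quantile normalization.

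Some antitrypsin probes are shared by copies in the array design or resemble each other. The probe of *Serpina1c* is also listed for *Serpina1a* and *Serpina1b*, and that of *Serpina1d* for *Serpina1b*. Probes of *Serpina1a* and *Serpina1c* share a run of 47 bases, shown by its first 30, and how far one copy is read by the probe of another was not tested.
Serpina1a and Serpina1c probes, first 30 of 47 shared bases: atgtcatccttccttctgaattgggttcct
*Serpina1f*, a divergent copy, was not well above background in control cells and read 17.5 in *Drp1*LiKO cells, too dim for a fold.

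The antichymotrypsins, a tandem family that stands for the single human *SERPINA3*, had mostly ratios close to 0. *Serpina3m* read 97099 in the control and 93435 in the *Drp1*LiKO culture (log2 ratio -0.056). *Serpina3k*, whose product binds tissue kallikrein, read 38078 and 39311 (log2 ratio 0.046). *Serpina3j* read 3677 and 3873 (log2 ratio 0.075). *Serpina3n*, an acute phase gene whose product inhibits cathepsin G and granzyme B, read 1323 and 1156 (log2 ratio -0.19). *Serpina3c* read 1011 and 1176 (log2 ratio 0.22), and *Serpina3h* 672 and 528 (log2 ratio -0.35).

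The antichymotrypsins with signals near background did not pass the threshold either. *Serpina3b* read 59.9 in the control and 31.0 in the *Drp1*LiKO culture (log2 ratio -0.95). *Serpina3g* encodes an inhibitor of cysteine cathepsins known to be induced by interferon gamma in leukocytes. It was not well above background in control cells and read 43.9 in *Drp1*LiKO cells, at least 2.26-fold higher (Z score 1.82). Its ratio passed the threshold where no floor was set for dim signals and where no filter was set on dim probes. *Serpina3i* was not well above background in control cells and read 19.2 in *Drp1*LiKO cells, too dim for a fold, and *Serpina3a* and *Serpina3f* were not well above background on either array. The promoter of *Serpina3g* is shown for its GAS match, in capitals (100 bases before the RefSeq start, build GRCm38.p6, plus strand, the match beginning 33 bases before the start).
Serpina3g, chr12:104236047-104236146: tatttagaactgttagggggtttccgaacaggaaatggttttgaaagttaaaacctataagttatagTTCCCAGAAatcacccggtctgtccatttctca

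Of the hormone carriers, *Serpina7*, which encodes thyroxine-binding globulin and lies on chromosome X, was the only clade A gene past the threshold. It read 617 in the control and 125 in the *Drp1*LiKO culture and fell 4.93-fold (log2 ratio -2.30, Z score -3.52), 22.2 times the spot noise expected of its ratio. It passed the threshold under each of the 9 other ways of processing that gave a Z score, with log2 ratios from -2.30 to -1.86. *Serpina6*, which encodes corticosteroid-binding globulin, read 322 and 336 (log2 ratio 0.060).

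The other clade A genes measured had lower signals in *Drp1*LiKO cells. *Serpina9*, known from germinal center B cells, read 132 and 56.0 at its brightest probe (log2 ratio -1.24, Z score -1.88). Its other probe read 50.9 in control and was not well above background in *Drp1*LiKO cells, at least 3.62-fold lower (Z score -2.83), so that *Serpina9* passed the threshold at 1 of its probes. *Serpina5*, the protein C inhibitor, read 57.0 and 38.3 (log2 ratio -0.57). *Serpina10*, which inhibits factor Xa with protein Z, read 234 and 181 (log2 ratio -0.37). *Serpina11*, with no known target protease, read 3920 and 3144 (log2 ratio -0.32). All 4 lay below 0 under each of the 9 other ways of processing, and *Serpina4-ps1*, *Serpina12* and *Serpina16* were not well above background. The B cell markers *Cd79a* and *Cd79b* were not well above background either, with 2 of 5 markers measured and none called.

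**Figure D4:**
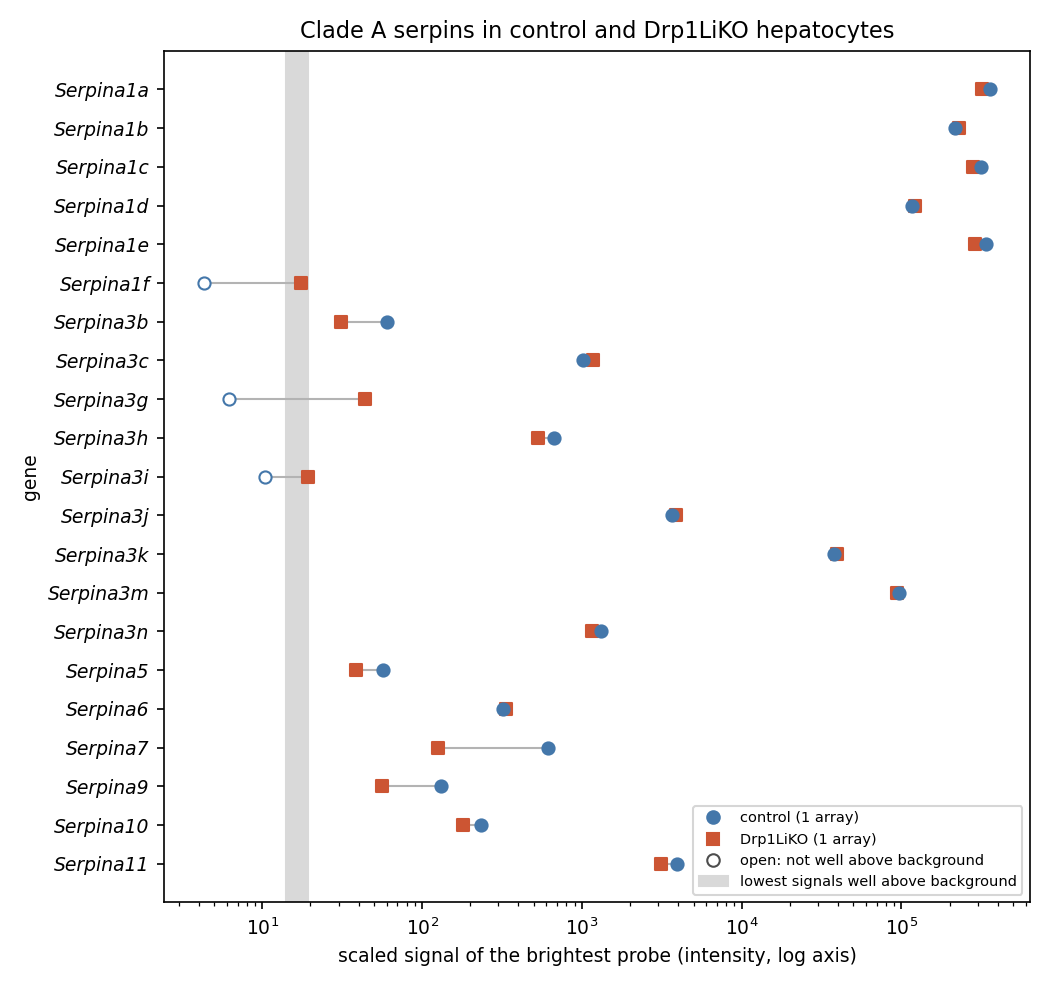
Scaled signal (log axis, intensity) of the brightest probe of the 21 measured clade A genes in control (circles) and *Drp1*LiKO cells (squares), 1 array each, with open symbols for signals not well above background and a gray band between the lowest signals that were. *Serpina7* has the longest gap among genes measured on both arrays (617 and 125), whereas the circles and squares of the antitrypsins nearly coincide.

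Short motifs were counted in the RefSeq promoters of the members, which stood in the table for 44 of 53 genes with 53 promoters of 300 bases, on both strands. The 9 genes without a promoter there, which were not searched, were *Serpina3h*, *Serpina3k*, *Serpina3m*, *Serpina4-ps1*, *Serpina6*, *Serpina9*, *Serpina10*, *Serpinb1a* and *Serpinb13*. A further motif that was counted is not reported here. The ISRE core GAAANNGAA was in 10 of 53 promoters, which belong to 8 genes because some genes have several starts, against 8.56% of 32851 promoters of the same length. These were *Serpina3a*, *Serpina3b*, *Serpina3f*, *Serpina5*, *Serpinb6a*, *Serpinb7*, *Serpinb9* and *Serpinb10*. The GAS core TTCNNNGAA was in 11 of 53, again of 8 genes, against 8.30%. These were *Serpina1f*, *Serpina3f*, *Serpina3g*, *Serpina3i*, *Serpina11*, *Serpinb2*, *Serpinb6a* and *Serpinb9c*. The ISRE and GAS matches of *Serpina3f*, and those of *Serpinb6a* before its start, overlap. The windows of *Serpinb9d*, *Serpinb9e*, *Serpinb9f* and *Serpinb9g* held neither motif, and a match or its absence in these windows describes the letters only.

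Genes around the serpins were read from lists of their relatives, targets and partners. Of 12 serpins of other clades, 10 were measured. *Serpinh1*, the collagen chaperone, rose 5.94-fold from 118 to 700, and *Serpini1*, neuroserpin, fell at least 2.76-fold from 38.9. Antithrombin (*Serpinc1*) read 42711 and 57601 (log2 ratio 0.43) and heparin cofactor II (*Serpind1*) 1655 and 776 (log2 ratio -1.09). Of 28 proteases that serpins inhibit, 20 were measured, 4 rose and 1 fell. Besides *Plau* and *Plat*, these were cathepsin S (*Ctss*, 156 to 1593, 10.2-fold), caspase 4 (*Casp4*, 49.5 to 925, 18.7-fold) and caspase 1 (*Casp1*, at least 3.34-fold, to 64.8). Cathepsin S is a cysteine cathepsin of antigen-presenting cells, and both caspases process inflammatory substrates.

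Of 19 regulators of serpin genes, 19 were measured and none fell, their log2 ratios having a median of -0.14. The lowest was *Il6st*, the shared receptor chain of the interleukin 6 family (1512 and 801, log2 ratio -0.92), and the liver factor *Hnf4a* gave a log2 ratio of 0.094. None of 14 genes of serpin clearance and folding passed the threshold, from *Ganab* (log2 ratio -0.52) to *Stab2* (log2 ratio 1.15). Of 18 acute phase genes, which the liver regulates during inflammation, 1 rose (*Lcn2*, 7632 to 24885, 3.26-fold). In the same list 2 fell (*Crp*, at least 7.01-fold from 98.6, and *Hamp*, 25856 to 5195, 4.98-fold), and the median log2 ratio was -0.31. The antitrypsin and antichymotrypsin lists had medians of -0.15 and -0.018, bounds included, and no gene of either was called.

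**Figure D5:**
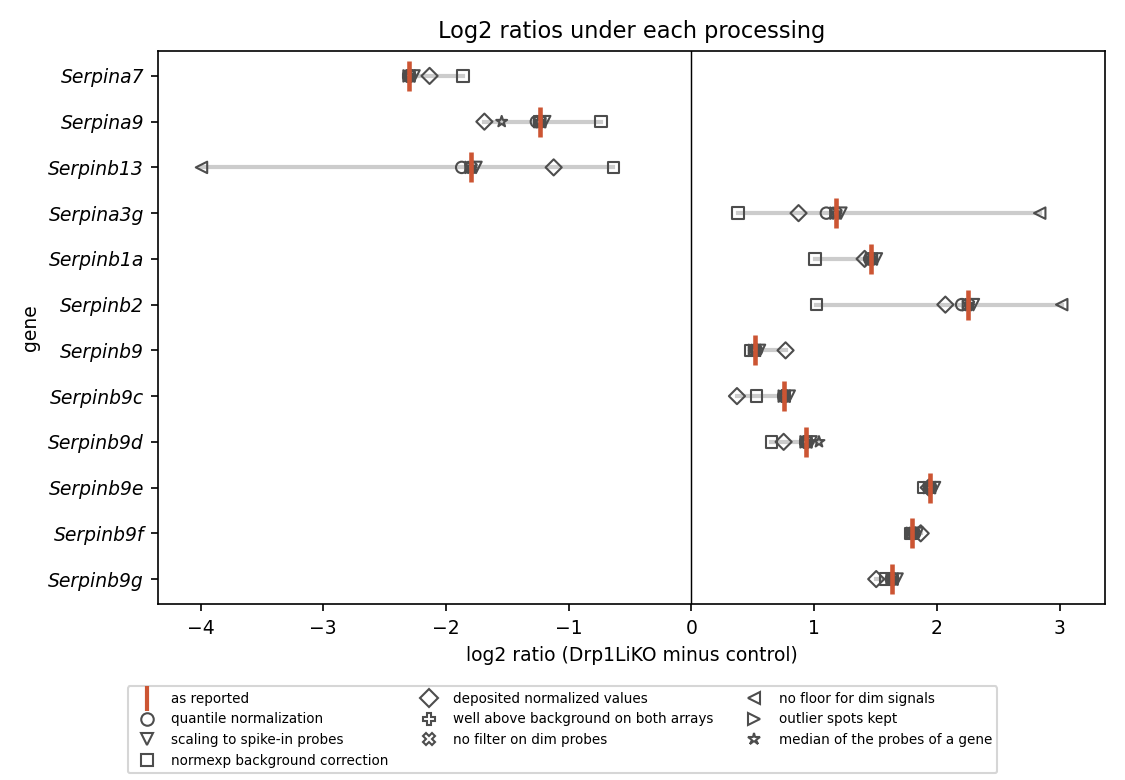
Log2 ratio (*Drp1*LiKO minus control) of 12 members with the ratio reported here (orange bar) and under up to 9 other ways of processing (gray symbols), 1 array per genotype. *Serpinb9e*, *Serpinb9f* and *Serpinb9g* stay within 1.51 to 1.98, whereas *Serpinb2*, *Serpinb13* and *Serpina3g*, each dim on 1 array, spread widely without crossing 0.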

How the data were processed

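Primary hepatocyte RNA of 1 control and 1 *Drp1*LiKO culture was read on 1-color Agilent arrays. The authors deposited Feature Extraction output (version 9.5.1.1 per the labels, 10.7.1.1 per the file headers) with a background-corrected intensity per spot, not normalized between arrays, and a table of normalized intensities on a linear scale, whose method is not given in the sources used here. Its control column kept the probe order of the control array (rank correlation 0.999999), but its *Drp1*LiKO column did not fully (0.958), so it served only as an alternative. Both columns had a median of 19.1.

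From the deposited intensities, log2 values were averaged per probe without outlier spots, and the 75th percentile was subtracted (a control signal of 313 and a *Drp1*LiKO signal of 356) and replaced by their geometric mean, 334. A probe was used where either array read it well above background (48.2% of 56600 probes for control, 52.1% for *Drp1*LiKO). Dimmer signals that lay under the lowest signal well above background of their array (19.4 and 14.1) were raised to it. Those above it were kept, and the ratios of all dimmer signals are treated as bounds. A bound under 1 gives no fold. The noise of a ratio came from the 50 nearest in signal of 300 probes printed 10 times. No spot was saturated, and no member spot was an outlier. With 1 array per genotype, precision is limited by the number of arrays.

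All members well above background were named, and of other lists those past the threshold and the highest and lowest, with further genes chosen after their values were seen. The members and the lists (serpin groups, other serpin clades, target proteases, regulators, clearance and folding, acute phase, and markers of 8 cell types) were chosen with earlier results of these data known. Motif letters were shortened after a first count. The values of some genes of the lists are not reported here. Cholangiocyte markers had 4 of 7 genes measured and none called. Coordinates of probes are in mm9, and promoters are those of RefSeq, GRCm38.p6, aligned globally. The protein sequences were not used here. The alternatives were quantile normalization, scaling to 7 spike-in probes, normexp with an offset of 50, the deposited values, 2 other filters, no floor, outlier spots kept, a robust Z score, a 2-fold limit and the median over the probes of a gene. The steps were tested on simulated data. Calculations used Python 3.11.15, numpy 2.4.6, pandas 2.3.3, scipy 1.17.1, matplotlib 3.10.9, Biopython 1.88, R 4.3.3 and limma 3.58.1.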

Additional observations from a re-analysis of the deposited data

How the results depend on the processing

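No paired analysis was possible because each genotype had 1 array. Over all settings that gave a Z score, 265 log2 ratios of single members stayed within the spot noise and 70 moved further. None of the ratios called as reported changed sign. The counts and medians of each clade are not in this tally and are given below. *Serpina1f*, not called and without a fold as reported, had a log2 ratio of 2.03 and was called higher without a floor. The cause of each shift was not tested unless the setting itself names it. Clade A genes called higher, 0 as reported, numbered 1 without a filter, with a 2-fold limit and with a robust Z score, and 2 without a floor. Clade A genes called lower, 1 as reported, numbered 2 with the deposited values, with the filter on both arrays, with the median of a gene's probes and with a 2-fold limit, and 3 with a robust Z score. The median of clade A, -0.15 with bounds included, was -0.057 with quantile normalization, -0.018 with normexp and 0 with the deposited values. Clade B genes called higher, 5 as reported, numbered 2 without a floor, where the wider spread of all ratios ended the calls of *Serpinb1a*, *Serpinb9f* and *Serpinb9g*, 8 with a robust Z score and 7 without a filter. Clade B genes called lower, 1 as reported, numbered 0 with normexp, with the deposited values and with the filter on both arrays, which leaves *Serpinb13* out. The median of clade B, 0.62, was 0.49 with normexp, 0.45 with the deposited values, 0.18 without a filter and 0.76 without a floor. Of the 13 clade B genes measured on both arrays, 12 lay above 0 with the deposited values and with the median of a gene's probes, the exception being *Serpinb8*, and 13 under the other settings. Without a filter the median of all genes shifted to -0.47, and 69.4% of called genes were higher against 55.5% as reported (1355 and 597 genes against 705 and 566). A robust Z score called 1722 and 1443 genes, and a 2-fold limit 1073 and 925. Signals close to background limit *Serpina3g*, *Serpinb1b*, *Serpinb2* and *Serpinb13* to bounds.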
